A study of Mus musculus with 8 samples.

Results

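Mouse chromosome 14 was examined in 8 liver tumors by array comparative genomic hybridization, through every probe of the arrays that lies on it. These were 7868 of 170305 different probes, spanning 14:8526343-125164256 on mm9 (116.6 Mb) at a median spacing of 10.3 kb, and they were chosen by position alone. In this assay tumor DNA and reference DNA, each with its own dye, are hybridized to the array together, so the ratio of the dyes follows the relative number of DNA copies.

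Each tumor came from a different male FAH-/- mouse, and liver DNA pooled from 6 littermates, all FAH+/+ males, was the common reference on all arrays. Fumarylacetoacetate hydrolase, the product of Fah, completes the breakdown of tyrosine, and animals without it are kept alive with NTBC (nitisinone), which blocks the pathway further upstream. The drinking water held 7.5 mg/L NTBC in the normal regimen, and the tumor mice were then kept on 2.5% of it, over 6 to 12 months; the mice's ages are not in the labels. The tumors form 1 group of 8 replicates, called tumors 1 to 8 here in the order of deposition, with tumors 1 to 4 on one slide and tumors 5 to 8 on the other. All tumors lack Fah, all come from males and all met the same pool, so neither the genotype nor the drug dose was compared between tumors. The tumor tissue was not separated from other cells, and fewer copies per cell cannot be told apart from fewer cells with a loss. DNA arrays hold no expression markers with which the tissue label could be checked.

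Chromosome 14 of the mouse carries several genes known from cancer, among them Rb1, which restrains entry into the cell cycle, Bap1, a deubiquitinase that acts on chromatin, Lats2, a kinase of the Hippo pathway, and Fhit, a large gene known as a fragile site. It also carries 2 microRNA clusters known for opposite roles: miR-15a and miR-16-1, which lie in Dleu2 and restrain BCL2 and cyclins, and the cluster made from Mir17hg, which promotes proliferation in several tumors. Loss of DNA lowers the number of templates for a gene and gain raises it, without fixing how much RNA is made.

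The mature microRNAs of these clusters are shown because all of them lie on the chromosome that was lost as a whole in tumor 6 and gained as a whole in tumor 5. Sequences are from RefSeq on GRCm38.p6, written from 5′ to 3′, with the seed (bases 2 to 8) in capitals. The cluster in Dleu2 gives a pair of mature forms with the same seed.
mmu-miR-15a-5p: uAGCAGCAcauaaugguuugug
mmu-miR-16-5p: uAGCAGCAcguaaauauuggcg
The cluster in Mir17hg gives forms with 4 different seeds, of which miR-17 and miR-20a share one and miR-19a and miR-19b share another.
mmu-miR-17-5p: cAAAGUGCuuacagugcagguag
mmu-miR-20a-5p: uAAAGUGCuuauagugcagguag
mmu-miR-18a-5p: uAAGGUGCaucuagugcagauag
mmu-miR-19a-3p: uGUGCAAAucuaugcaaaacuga
mmu-miR-19b-3p: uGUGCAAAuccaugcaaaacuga
mmu-miR-92a-3p: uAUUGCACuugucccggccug

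Signals on the chromosome were well above background in both channels for 97.9% to 99.9% of its spots, and their median signal exceeded the background around the spot 4.32-fold to 11.4-fold for the reference and 4.26-fold to 7.98-fold for the tumor. Levels are given as log2 of tumor over reference, with 0 set to the commonest level of the autosomes in the same tumor and a pattern of probe values shared by the arrays subtracted. Noise between neighbouring probes was then 0.156 to 0.221, against 0.616 to 0.65 in tumors 1 to 6 and 0.389 and 0.388 in tumors 7 and 8 with the pattern kept. Tumors 7 and 8 also held 21 and 15 of the 49 breakpoints on chromosome 14. For a chromosome with 2 copies in every cell, the loss of 1 copy would give -1 and the gain of 1 copy 0.58. A stretch was called lost or gained at a mean of at least 0.2 in size over at least 5 probes. The number of arrays limits the precision, and an SE over probes covers only the scatter of probes on 1 array.

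Chromosome 14 was gained over its whole length in tumor 5, lost over its whole length in tumor 6, lost over its distal 64.4 Mb in tumor 3 and lowered over its whole length in tumors 8 and 4, of which tumor 4 lay just outside the call. It was near 0 in tumors 1, 2 and 7. The mean log2 ratio over the chromosome was 0.0015 in tumor 1, 0.0059 in tumor 2, -0.164 in tumor 3, -0.199 in tumor 4, 0.389 in tumor 5, -0.483 in tumor 6, -0.024 in tumor 7 and -0.277 in tumor 8. With the shared pattern kept, the same means were 0.0054, 0.010, -0.162, -0.196, 0.394, -0.475, -0.014 and -0.285 in the same order. Tumor 5 was thus the highest and tumor 6 the lowest on either scale.

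**Figure D1:**
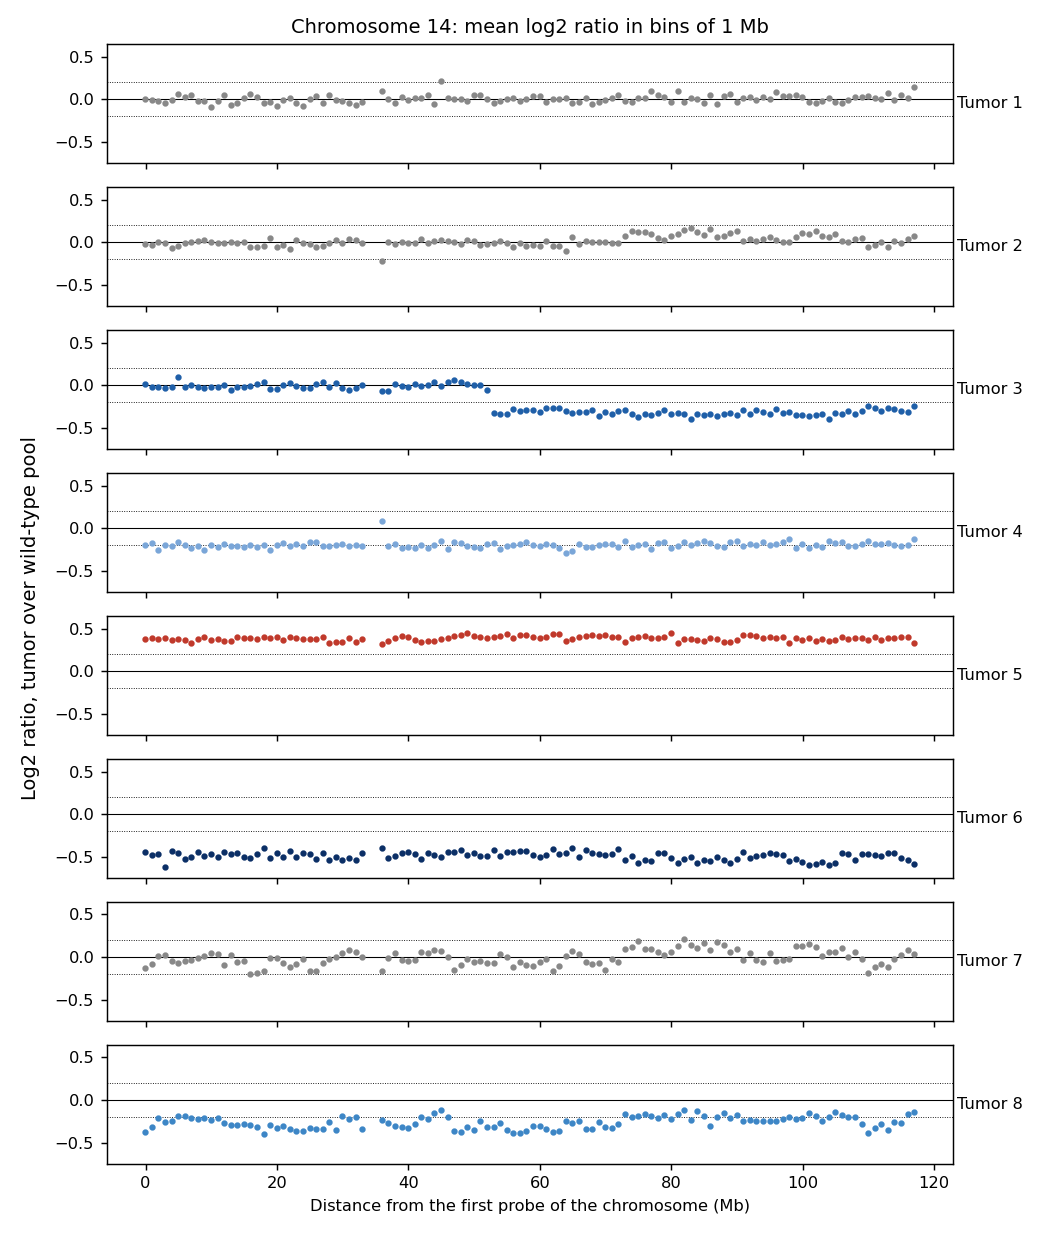
Mean log2 ratio of tumor over wild-type pool (y axis) in 116 bins of 1 Mb along chromosome 14, against the distance from its first probe in Mb (x axis), with 1 panel per tumor and dotted lines at the call threshold of 0.2 in size. All bins of tumor 5 lie at 0.324 or above, all of tumor 6 at -0.394 or below, and tumor 3 drops between its 50 proximal and its 65 distal bins.

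Over the 8 tumors the mean was -0.094 ± 0.26 (SD, n = 8), and 5 of 8 tumors lay below 0. An exact sign-flip permutation test, two-sided, did not set the 8 means apart from 0 (p = 0.344, adjusted p = 0.529 over 20 chromosomes, Benjamini-Hochberg). None of the 20 chromosomes passed that test at an adjusted p of 0.05 (0%). The smallest exact sign-flip p possible with 8 tumors is 0.0078, so 1 chromosome alone could not pass after adjustment. Chromosomes 8, 12 and 16 stood at that p, with an adjusted p of 0.052. The 0% is therefore no measure of how many chromosomes changed. The SD between tumors on chromosome 14 was the largest of the 20 chromosomes. Within slides the mean was -0.089 ± 0.11 (SD, n = 4) in tumors 1 to 4 and -0.099 ± 0.38 (SD, n = 4) in tumors 5 to 8, so the wider spread lay on the slide that holds tumors 5 and 6.

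Losses took up 55.2% of the probed length in tumor 3, 100% in tumor 6, 1.11% in tumor 7 and 95.1% in tumor 8, and 0% in tumors 1, 2, 4 and 5. Gains took up 100% in tumor 5, 0.141% in tumor 7 and 0% elsewhere. Of all probes on the autosomes and X, called losses held 17.2% in tumor 1, 0.773% in tumor 2, 30% in tumor 3, 5.72% in tumor 4, 0.381% in tumor 5, 33.3% in tumor 6, 10.5% in tumor 7 and 15.9% in tumor 8. By length, called losses held 17.5%, 0.723%, 30.6%, 6.23%, 0.643%, 34.9%, 8.53% and 16% in tumors 1 to 8, in that order. Both kinds of share include chromosome 14 itself. Against either, the chromosome was lost to a larger extent in tumors 3, 6 and 8. In tumors 1, 2, 4, 5 and 7 it was lost to a smaller extent. Called gains held 0.908%, 0.112%, 3.86%, 4.57%, 16.1%, 4%, 0.341% and 4.32% of all probes in tumors 1 to 8, in that order. Over all tumors and chromosomes, 15.2% of bins of 1 Mb had a mean of -0.2 or below and 4.59% a mean of 0.2 or above. At least 10% of chromosome 14 was lost in 3 of 8 tumors and gained in 1, where 19.4% of all 160 pairs of a chromosome and a tumor had such a loss and 6.25% such a gain. Chromosome 14 was 1 of 4 chromosomes with at least 10% lost in at least 3 tumors. It was also 1 of 4 with such a loss in some tumor and such a gain in another.

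**Figure D2:**
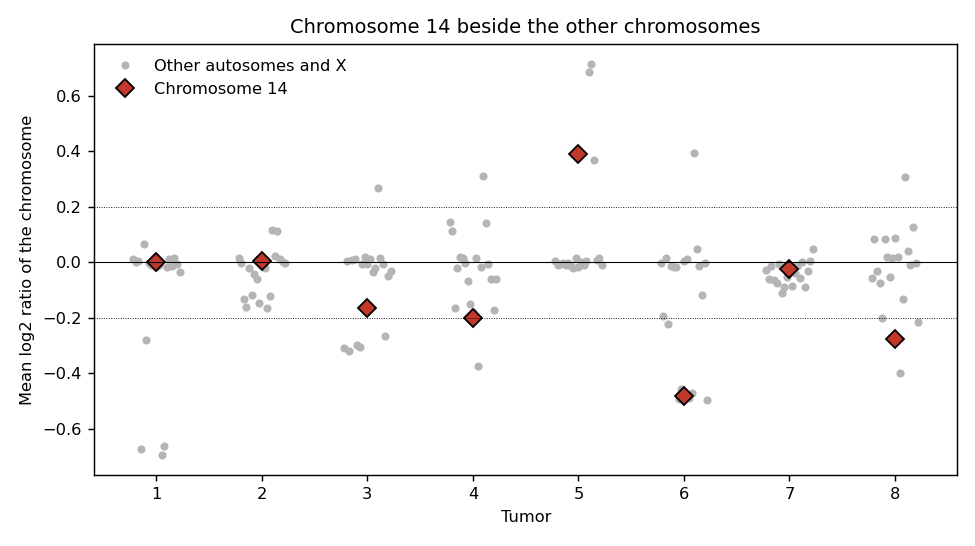
Mean log2 ratio of each chromosome (y axis) by tumor (x axis), with chromosome 14 as red diamonds, the other autosomes and X as grey points, and dotted lines at 0.2 in size. Chromosome 14 lies at 0.389 in tumor 5 and at -0.483 in tumor 6, each near other changed chromosomes of the same tumor, and at 0.0015 in tumor 1, far from the chromosomes lost there.

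Tumor 5 carried the gain. The chromosome was 1 segment without a breakpoint at 0.389 ± 0.0019 (SE over 7868 probes), a linear ratio of 1.31, and 116 of 116 bins reached 0.2. Bin means ran from 0.324 to 0.452, a range that overlapped with that of no other tumor. Only 1.44% of its probes lay below 0. Chromosome 17, also gained as a whole in this tumor, stood at 0.367, while chromosomes 15 and 16 stood at 0.685 and 0.716. Chromosome 14 minus chromosome 17 was 0.022, and chromosome 14 minus chromosomes 15 and 16 was -0.296 and -0.327, so its gain was close to that of chromosome 17 and smaller than the others.

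Tumor 6 carried the loss of the whole chromosome. Its mean was -0.483 ± 0.0023 (SE over 7868 probes), a linear ratio of 0.715, with 116 of 116 bins at -0.2 or below and bin means from -0.617 to -0.394. In the same tumor, chromosomes 8, 9, 12, 13 and X were lost at -0.492, -0.456, -0.488, -0.47 and -0.498. Chromosome 14 minus each of these was 0.0087, -0.027, 0.0044, -0.013 and 0.014, while chromosome 4 was less low at -0.223. The long lost segments were 14:8526343-11122127 at -0.469, 14:11307723-31760798 at -0.474 and 14:31984097-125164256 at -0.483, so the level was nearly even from end to end. 

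Within this loss of the whole chromosome lay a short stretch that was lower still, at 14:11131132-11290609 (159 kb, 16 probes). Its mean in tumor 6 was -1.32 ± 0.057 (SE over probes), a linear ratio of 0.402, and its difference from the rest of the chromosome in that tumor was -0.83. Single probes ran from -1.70 to -0.823, and 14 of 16 lay at -1 or below. Over the same probes the means were -0.085 in tumor 1, 0.019 in tumor 2, -0.057 in tumor 3, -0.234 in tumor 4, 0.335 in tumor 5, 0.090 in tumor 7 and -0.241 in tumor 8. None of the 112 probe values in these 7 tumors reached -1, and the 7 means minus the rest of the chromosome in the same tumor ran from -0.087 to 0.114. Elsewhere on chromosome 14 of tumor 6, 327 of 7852 single probes lay at or below the highest probe of the stretch, so single probes as low as these occurred elsewhere, whereas here they were contiguous. With the shared pattern kept its mean was -1.41, with the array median set to 0 -1.19 and with normexp background correction -1.15. The probe before the stretch ends at 11122127 and the one after it starts at 11307723. The 95% likelihood interval was 11131191 to 11145164 for the proximal edge, after the first probe of the called stretch (-0.823), and 11279143 to 11307723 for the distal edge. A second short low stretch of tumor 6, picked out after its values were seen, lay at 14:31768922-31973269 with a mean of -0.757 ± 0.038 over 23 probes.

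**Figure D3:**
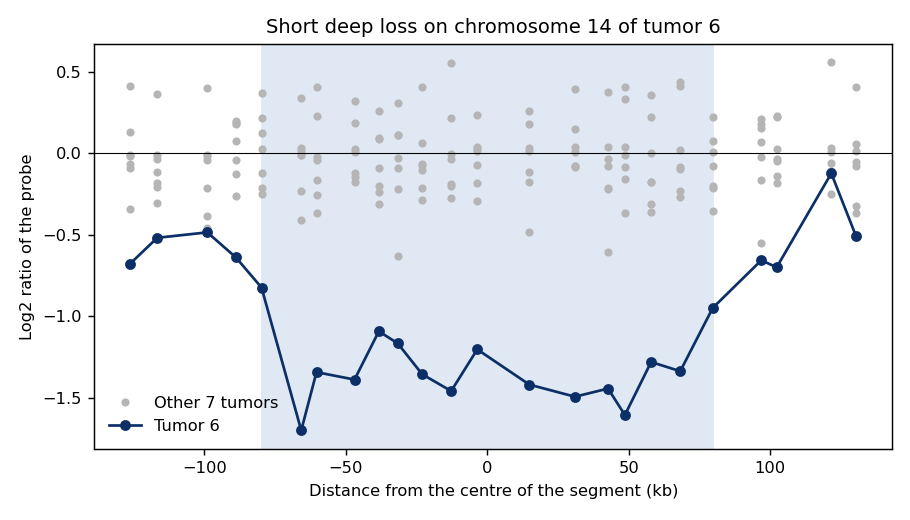
Log2 ratio of single probes (y axis) against distance from the centre of the short low stretch in kb (x axis), with tumor 6 as a dark line, the other 7 tumors as grey points and the stretch shaded. The 16 probes of tumor 6 inside the shading lie between -1.70 and -0.823, below the 8 probes of tumor 6 shown beside it, while the values of the other tumors inside it stay at -0.628 or above.

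Tumor 3 carried a loss of the distal part with a single sharp edge. Its chromosome 14 had 3 breakpoints in all, and the others bounded an uncalled stretch at 14:13207302-14010778 with a mean of 0.124. Tumor 1 had an uncalled stretch at nearly the same place, 14:13198363-14213729 at 0.115. The loss covered 14:60785903-125164256, the distal 64.4 Mb with 4049 probes, at -0.313 ± 0.0028 (SE), while the proximal remainder stood at -0.0053 ± 0.0027. All 65 bins beyond the edge lay between -0.394 and -0.239, and all 50 bins before it lay between -0.070 and 0.094. Bins of the 2 sides did not overlap. The last retained probe ended at 60768591 and the first lost probe started at 60785903, which leaves 17.3 kb for the breakpoint. The 95% likelihood interval of the edge ran from 60742297 to 60785903. The 10 probes just before the edge averaged 0.027 and the 10 just after it -0.450, the 100 on each side 0.036 and -0.338.

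No other tumor had an edge at that position of a like size. The distal level minus the proximal level was 0.013 in tumor 1, 0.031 in tumor 2, -0.308 in tumor 3, 0.0096 in tumor 4, 0.014 in tumor 5, -0.0045 in tumor 6, 0.034 in tumor 7 and 0.016 in tumor 8. Tumor 3 lay apart from the other 7, whose differences ran from -0.0045 to 0.034. When the chromosome was divided at the middle of its probed length, the proximal minus the distal side was 0.016 ± 0.10 (SD, n = 8). The exact sign-flip permutation test did not set it apart from 0 (two-sided, adjusted p = 0.984 over 20 chromosomes). Of the chromosomes, 0% passed, under the same limit on the smallest possible p. The sign of that mean rests on tumor 3, where the difference was 0.27, and it was -0.020 without it.

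**Figure D4:**
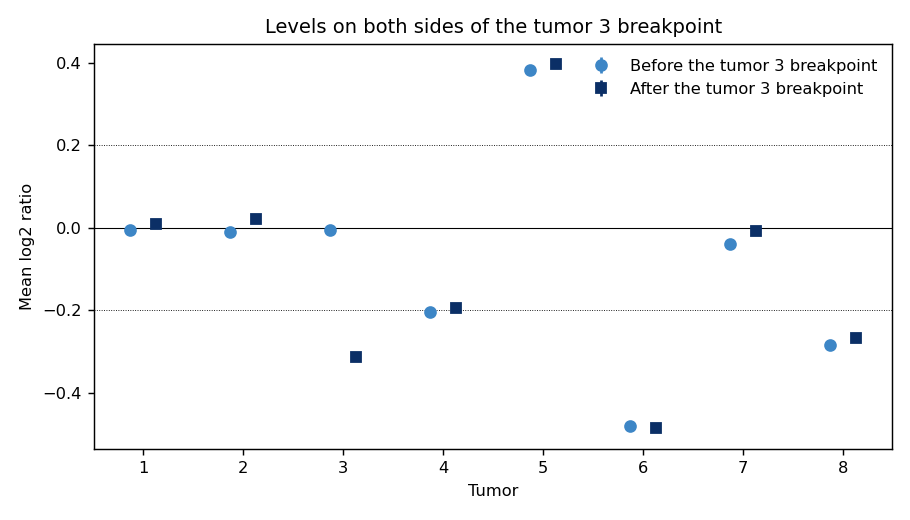
Mean log2 ratio (y axis) of the parts of chromosome 14 before (circles) and after (squares) the tumor 3 breakpoint, by tumor (x axis). Error bars are 95% confidence limits from the SE over probes and are smaller than the symbols. The distal minus the proximal level is -0.308 in tumor 3 and between -0.0045 and 0.034 in the other 7 tumors.

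The level of the tumor 3 loss was close to those of chromosomes lost whole in the same tumor. Chromosomes 1, 3, 6 and 7 stood there at -0.31, -0.319, -0.298 and -0.306, and the distal part of chromosome 14 minus each was -0.0031, 0.0059, -0.015 and -0.0073. Chromosome 15 was gained in this tumor, at 0.269. Tumor 1 gives the opposite case, with chromosomes 4, 12 and 13 at -0.673, -0.696 and -0.664 and chromosome 14 at 0.0015.

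Tumor 8 had a lowered chromosome with uneven levels. Its mean was -0.277 ± 0.0027 (SE over probes), all 116 bins lay below 0, and 92 of 116 lay at -0.2 or below, with bin means from -0.401 to -0.113. The share called lost was 47.1% with array medians or at a threshold of 0.3 and 58.7% without a smallest step between segments, against 95.1% in the main setting. It was divided into 16 segments, of which 13 were called lost. The 8 called segments of at least 1 Mb had levels of -0.224 to -0.207 or of -0.328 to -0.316. From the proximal end these were 14:9414070-21435307 at -0.224, 14:21442216-36391694 at -0.326, 14:38107554-41655425 at -0.208 and 14:41666110-49845841 at -0.316. Next came the uncalled stretches 14:49858810-52597049 at -0.174 and 14:52671677-54826763 at -0.169. Called segments of at least 1 Mb continued with 14:55123631-80306348 at -0.328, 14:80336995-118162926 at -0.209, 14:118219707-122670864 at -0.327 and 14:122678633-125164256 at -0.207. The shallowest of these lies just inside the call threshold. A stretch of 6 probes at 14:118170191-118214014 had a mean of -0.904 ± 0.22 (SE), but its single probes ran from -1.53 to -0.023. Edges in tumor 8 were unevenly fixed, with 95% likelihood intervals from 7.3 kb to 4861 kb wide. The widest were 4861 kb after 41655425, 2552 kb after 49845841 and 2183 kb after 21435307. The called edges at 55113486, 118214014 and 122670864 lay distal of their intervals. Those intervals were 54853797 to 54863051, 118176883 to 118187520 and 121924493 to 122069663.

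The uneven levels of tumor 8 ran in parallel with those of tumor 7. Over 116 bins, the profiles of tumors 7 and 8 correlated with r = 0.750 and rho = 0.764, and tumor 8 was lower in 116 of 116 bins, with a mean difference of -0.255. The SD of the bins was 0.090 in tumor 7 and 0.071 in tumor 8, and that of their difference was 0.060. Tumors 5 to 8 share a slide, and all tumors share the reference pool. Tumor 7 correlated at r = 0.775 with tumor 2, on the other slide, and tumor 6, on the same slide, at r = -0.576 with tumor 7 and r = -0.589 with tumor 8. Neighbouring bins are not independent, so these correlations describe the profiles only. All were taken with the shared pattern subtracted, and what that step adds to them was not tested. The part that an array effect may have in the breakpoints of tumors 7 and 8 was not tested.

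**Figure D5:**
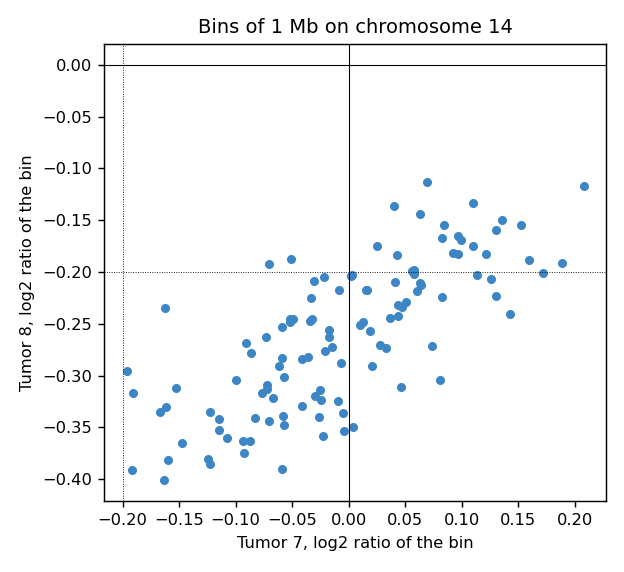
Mean log2 ratio of tumor 8 (y axis) against tumor 7 (x axis), with 1 point for each of 116 bins of 1 Mb on chromosome 14. Solid black lines mark 0 and dotted black lines the call threshold for a loss. The points rise together (r = 0.750) and all lie lower on the axis of tumor 8 than on that of tumor 7.

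Tumor 7 itself stood near 0, with a mean of -0.024, and its 22 segments held 1 called loss and 1 called gain. The loss covered 14:118128796-119419066 (1.29 Mb, 117 probes) at -0.223 ± 0.029 (SE). The 95% likelihood interval was 91.9 kb wide for its proximal edge and 475 kb wide for its distal edge. No loss was called in tumor 7 with the shared pattern kept, with array medians, with normexp, with only spots well above background or at a threshold of 0.3, which are 5 of the 9 alternatives. The gain covered 14:103557829-103713002 at 0.283 over 18 probes, where tumor 2 stood at 0.158 without a call. No gain was called in tumor 7 with normexp, by a hidden Markov model, at a threshold of 0.3 or with at least 20 probes per segment.

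Tumor 4 had an even level just outside the call. Chromosome 14 was 1 segment at -0.199 ± 0.0024 (SE over probes), with 115 of 116 bins below 0 and 55 at -0.2 or below. In the same tumor chromosome 12 stood at -0.373 and chromosome 15 at 0.31, so chromosome 14 moved less than either. Its call depended on the processing. It was lost over 62.2% of its length with the shared pattern kept, over 58.6% with only spots well above background, over 48.9% by a hidden Markov model, over 100% with normexp background correction, without a smallest step between segments or at a threshold of 0.1, and over 0% in the other 3 settings tried.

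Tumors 1 and 2 had no called stretch on chromosome 14. Their bin means ran from -0.085 to 0.211 and from -0.219 to 0.170, and their breakpoints, 4 and 2 in number, had steps of at most 0.163 and 0.135. Tumor 2 rose slightly over the distal part, where its median bin stood at 0.029 against -0.0090 in the proximal part. The means over probes were 0.021 distal and -0.010 proximal. With the shared pattern kept they were 0.0011 distal and 0.020 proximal, so the direction of this difference depended on the processing. 

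Calls of loss overlapped most in the distal part of the chromosome. The stretch 14:60785903-125164256, 64.4 Mb or 55.2% of the probed length, was lost in at least 3 tumors, namely 3, 6 and 8. Its proximal edge is the breakpoint of tumor 3. Losses in at least 2 tumors, tumors 6 and 8 among them, took up 95.1% of the length. Over the autosomes and X, 31.4% of probes were lost in at least 2 tumors and 8% in at least 3. Over this stretch the means were 0.0081 in tumor 1, 0.021 in tumor 2, -0.313 in tumor 3, -0.195 in tumor 4, 0.395 in tumor 5, -0.486 in tumor 6, -0.0073 in tumor 7 and -0.269 in tumor 8. The 3 tumors with the call were the lowest, which follows from how the stretch was chosen. Tumor 4 came next, and the other 4 tumors lay above it.

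The smallest part that was lost in the most tumors was 14:118128796-119419066 (1.29 Mb, 117 probes, 1.11% of the probed length), called in tumors 3, 6, 7 and 8. Genome-wide, 4.2% of probes were lost in at least 4 tumors. Its means were 0.029 in tumor 1, -0.058 in tumor 2, -0.236 in tumor 3, -0.171 in tumor 4, 0.378 in tumor 5, -0.467 in tumor 6, -0.223 in tumor 7 and -0.415 in tumor 8. Both of its ends are those of the short loss of tumor 7, whose profile tumor 8 follows. These ends were loosely fixed. The 95% likelihood interval ran from 118113397 to 118205323 for the proximal end, with the likeliest split after 118162926. For the distal end it ran from 119025656 to 119500168. Without tumor 7 the most shared part is the distal 64.4 Mb. In tumor 3 this part was less low than the distal loss as a whole. The most shared part was 1.20 to 64.4 Mb long over the settings tried, and not always at this position.

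No bin of chromosome 14 passed a test of a shift common to the 8 tumors. In a limma fit of 2538 bins of 1 Mb over the genome, tested with treat against a log2 size of 0.1, 0 of 116 bins on chromosome 14 had an adjusted p below 0.05. At an unadjusted p of 0.05 the count was also 0, against 179 bins over the genome. Genome-wide 0% of bins were called lower and 0% higher. With the shared pattern kept, 5 bins of chromosome 14 passed at an unadjusted p and none after adjustment (lowest adjusted p = 0.148, limma). In that setting 332 of 2538 bins over the genome passed at an unadjusted p, and 2 lower and 1 higher after adjustment, none of them on chromosome 14.

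Genes could be placed by chromosome only, from RefSeq on GRCm38.p6, so gene values are those of the chromosome in the tumors where it changed as a whole. RefSeq lists 2328 genes there, 851 of them protein-coding. The gene lists were drawn up for chromosome 14, so that their members lie on it is no finding. A list of cancer genes has 36 entries, and in tumor 6 their chromosome stood at -0.483 and in tumor 5 at 0.389. Beside those named above they include Pbrm1, a subunit of a chromatin remodeller, Gata4, a transcription factor of early liver development, Rarb and Thrb, nuclear receptors for retinoic acid and thyroid hormone, Bmpr1a, a receptor for bone morphogenetic proteins, and Spry2, an inhibitor of receptor tyrosine kinase signalling.

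A list of genes of liver metabolism has 20 entries. They include Glud1, which encodes glutamate dehydrogenase, Adk, adenosine kinase, Ephx2, soluble epoxide hydrolase, Fdft1, squalene synthase, and Pcca, a subunit of propionyl-CoA carboxylase. A list on DNA repair, chromosome structure and cell death has 16 entries, such as Apex1, the main abasic-site endonuclease, Parp2, which responds to DNA breaks, Wapl, which releases cohesin, Esco2, which acetylates it, and Ripk3, a kinase of necroptosis. A list of multigene clusters, with the T cell receptor alpha and delta loci, the granzyme and mast cell protease genes and the cardiac myosins Myh6 and Myh7, has 15 entries, of which 14 were matched in RefSeq; the remaining one names a family and not a symbol. Which of these genes lie beyond the tumor 3 breakpoint or within the short stretch of tumor 6 was not analysed here, as positions on mm9 were not used for genes.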

How the data were processed

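Scanner output of 8 two-colour arrays was used, 1 per tumor, with tumor DNA in Cy5 and the pool in Cy3. The authors extracted it with Agilent Feature Extraction 10.7.3.1, per the submitters' processing notes. The deposited processed signals are intensity values, background-subtracted and dye-normalized per the file headers. The deposited log ratios are log10 of red over green, and the series table holds the same log10 ratios rounded. The deposited quality marks of spots are of the kind other, 0 or 1. Probe positions are on mm9 per the file headers. Dyes were not swapped, and the median signal over background stands in the results.

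Log2 ratios of processed signals were taken for spots that are not controls. Spots marked as outliers (4 to 12 per array on chromosome 14) were dropped, and 216 missing probe values over all arrays were filled with the median of neighbouring probes. Spots of a probe were averaged, the median residual of the other 7 arrays was scaled and subtracted, and the commonest autosomal segment level (density bandwidth 0.03) was set to 0. Circular binary segmentation was written in Python 3.11.15 (numpy 2.4.6, pandas 2.3.3, scipy 1.17.1, numba 0.67.0; plots with matplotlib 3.10.9). Its split threshold was a z of 5.25 from 200 simulated chromosomes of 8000 probes at 1% false splits. The simulated probes were independent, and the rate of false splits in the real profiles was not tested. The likelihood intervals of edges likewise treat probes as independent. Values were limited to 4 noise SD, neighbours under a z of 4 were merged, and a smallest step of 0.1 was set after seeing the data. Segments needed a mean of 0.2 in size and 5 probes. Segmentation was tested on simulated data. Bins of 1 Mb with at least 5 probes went into limma 3.58.1 (R 4.3.3). Chromosome values were tested by exact sign flips, whose smallest p with 8 tumors is 0.0078.

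The chromosome and the gene lists were chosen with earlier results of these data known. Segments of at least 1 Mb, shorter ones of at least 0.8 in size and the most shared parts are named. The gain of tumor 7 is named as the part gained in most tumors together with tumor 5. P-values measure the spread between these 8 tumors and leave out that between control mice, as the pool is a single reference.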

Additional observations from a re-analysis of the deposited data

Results flagged for a closer look

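In 4 of 11 sets of values, 1 of the 8 tumors lay far from the other 7 by Dixon's criterion. The sets overlap, since several describe the same change. The tumor 3 breakpoint and the short stretch of tumor 6 were placed from the values of those same tumors, which therefore had to stand apart there. The rate of about 1 in 20 sets expected by chance does not apply to sets chosen in this way. The difference across the tumor 3 breakpoint was -0.308 in tumor 3. The proximal minus the distal side of the middle of the chromosome was 0.27 in the same tumor. The share of the chromosome that was gained was 100% in tumor 5, against 0.141% or less in the others. The short stretch of tumor 6 stood at -1.32 there.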

How the results depend on the processing

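The mean of chromosome 14 lay below 0 in all 16 settings tried, from -0.163 to -0.038, and its adjusted exact permutation p was 0.156 to 0.893. The proximal minus distal difference was 0.016, but 0.056 with the pattern kept (adjusted exact permutation p = 0.117). It turned to -0.018 on slide 2 alone, and leaving out each tumor in turn gave -0.020 to 0.025, with the negative value without tumor 3. The first lost probe of tumor 3 started at 60785903 or, with normexp, at 60752397. Over the other settings tried, the distal loss of tumor 3 stood at -0.340 to -0.240. Chromosome 14 of tumor 6 stood at -0.490 to -0.359 over them. Tumors with any called loss were 4, but 7 at a threshold of 0.1, 5 with the pattern kept, normexp, only spots well above background, the hidden Markov model or no smallest step, 3 with array medians, a threshold of 0.3 or slide 2 alone, 1 on slide 1 alone and 3 to 4 with a tumor left out. Tumors with at least 10% lost were 3, but 4 in the settings that gave 7 or 5, 2 on slide 2 alone, 1 on slide 1 alone and 2 to 3 with a tumor left out. The smallest part lost in the most tumors was 1.29 Mb. It was 63.7 Mb with the pattern kept and 64.4 Mb with normexp, both from the tumor 3 breakpoint on and in tumors 3, 4, 6 and 8. It was 19.5 Mb with array medians or at a threshold of 0.3, from the same breakpoint. It lay elsewhere by a hidden Markov model (14:69414075-72253807, 2.84 Mb) and at a threshold of 0.1 (14:77554004-79727376, 2.17 Mb), and was 1.29 Mb in 5 tumors without a smallest step, and 1.29 to 64.4 Mb with a tumor left out. It was not run with only spots well above background or within slides. Breakpoints numbered 49, but 38 with the pattern kept, 42 with normexp, 80 without a smallest step and 113 by the hidden Markov model. The cause of these changes was not tested. The slide as a random block (consensus correlation -0.085) gave 0 shifted bins, as did the 16 other settings of that test. No paired analysis was possible because the tumors form 1 group. Noise of single probes limits what can be seen in stretches of a few probes.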
